A study of Mus musculus with 6 samples.

Results

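The nuclear genes of oxidative phosphorylation were examined in hypoxic neonatal mouse cardiomyocytes treated with vehicle or β-sitosterol (β-SITO). Members were the protein-coding genes off the mitochondrial chromosome whose symbols name a subunit of respiratory complexes I to IV, cytochrome c or the ATP synthase (complex V). They were selected by symbol and chromosome and not by any measured value. The symbols matched 90 of the 57010 genes in the deposited table, with 37 for complex I, 4 for complex II, 9 for complex III, 1 for cytochrome c, 21 for complex IV and 18 for complex V. At least 10 counts in at least 3 libraries were found for 86 of the 90, and the filter on low counts kept these same 86 for testing. The other 4 were Cox7b2, Cox8c, Ndufb11b and a second identifier with the symbol Atp5o (ENSMUSG00000116933).

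All 6 RNA-seq libraries came from primary neonatal mouse cardiomyocytes (NMCMs), and all the cells were under hypoxia (HO). The HO + Vehicle group held libraries V1 to V3 and the HO + β-SITO group held T4 to T6, so the comparison is that of the plant sterol against its vehicle in hypoxic cells, with no normoxic library used here. In the study, NMCMs were isolated from C57BL/6 mice of 1 to 3 days of age and enriched as the cells that did not attach during a short adhesion step. The dose and the hours of treatment and hypoxia behind these libraries were not given in the sources used here, nor whether the 3 libraries of a group came from separate cultures, so p-values measure only the spread between these libraries.

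Oxidative phosphorylation makes most of the ATP of a beating cardiomyocyte. Complexes I and II pass electrons from NADH and succinate to ubiquinone, complex III passes them on to the small soluble carrier cytochrome c, and complex IV (cytochrome c oxidase) hands them to oxygen, while the proton gradient built on the way drives complex V. Most subunits are encoded in the nucleus and a few in the mitochondrial DNA, and several complex IV subunits exist as paired isoforms, with one form in most tissues and another in heart and muscle, lung or testis.

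The libraries held 16694734 to 18460522 counts. Expression is given in CPM, counts relative to the effective library size after TMM scaling. Unless another test or setting is named, each adjusted p below comes from edgeR's quasi-likelihood test, adjusted by Benjamini-Hochberg over 14799 genes. With another scaling or filter, or a library left out, the same test was adjusted over the genes tested there. A differentially expressed gene (DEG) had an adjusted p under 0.05 and differed more than 2-fold. The 10 cardiomyocyte markers were present in every library, and of these 3 were higher, 2 lower and 5 did not pass. Myh6, a cardiac myosin heavy chain, lay at 2274, 1726 and 1917 CPM in V1 to V3 and at 2023, 3268 and 3256 CPM in T4 to T6 (log2 fold change 0.53), whereas the troponin Tnnt2 lay at 1238, 1225 and 1247 CPM against 724, 970 and 983 CPM (-0.47). The 2 DEGs among these markers were both higher, Myl7 (2.39, adjusted p = 2.63e-09) and Myh7 (1.61, adjusted p = 1.87e-04). Pln (-0.42, adjusted p = 0.0141) was lower, as Tnnt2 was. T4 stood apart from T5 and T6 for these genes, with 4407 CPM summed over 10 cardiomyocyte markers against 7131 and 7154 CPM, and with 5164 to 6100 CPM in the HO + Vehicle libraries. Other cell types were also present, and their summed markers were higher in HO + β-SITO: 29610 to 30926 against 44091 to 45172 CPM for 7 fibroblast genes (4 higher and 2 lower by the test), 171 to 197 against 707 to 740 CPM for 6 endothelial genes (6 higher), 1077 to 1188 against 2295 to 2797 CPM for 7 macrophage genes (5 higher), 546 to 589 against 1061 to 1242 CPM for 4 smooth muscle genes (4 higher) and 42.0 to 47.5 against 62.5 to 76.1 CPM for 3 epicardial genes (3 higher). No erythroid marker reached the filter and Hbb-bs was at 0 in all libraries. In bulk libraries, fewer cells of a type and less RNA per cell cannot be told apart, and the part of cell composition in the results on members was not tested.

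Most nuclear oxidative phosphorylation genes differed little between the groups, and a few in cytochrome c and complex IV differed strongly. At an adjusted p under 0.05, 15 of the 86 tested members (17.4%) were higher in HO + β-SITO, against a background of 33.0% of all genes tested. Another 12 members (13.95%) were lower, against 33.8% of all genes, and 59 did not pass. Only 2 members were DEGs that rose, Cox4i2 and Cox6b2 (12.8% of all genes were such DEGs), and 1 was a DEG that fell, Cycs (10.1% of all genes). The CPM of the groups did not overlap for 29 members (33.7%), against 70.5% of all genes. The median log2 fold change of the members was -0.01, equal to the -0.01 over all genes, but the median size of the change regardless of sign was 0.13 for members and 0.44 over all genes. The log2 fold change was smaller than 0.5 in size for 78 of the 86.

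**Figure D1:**
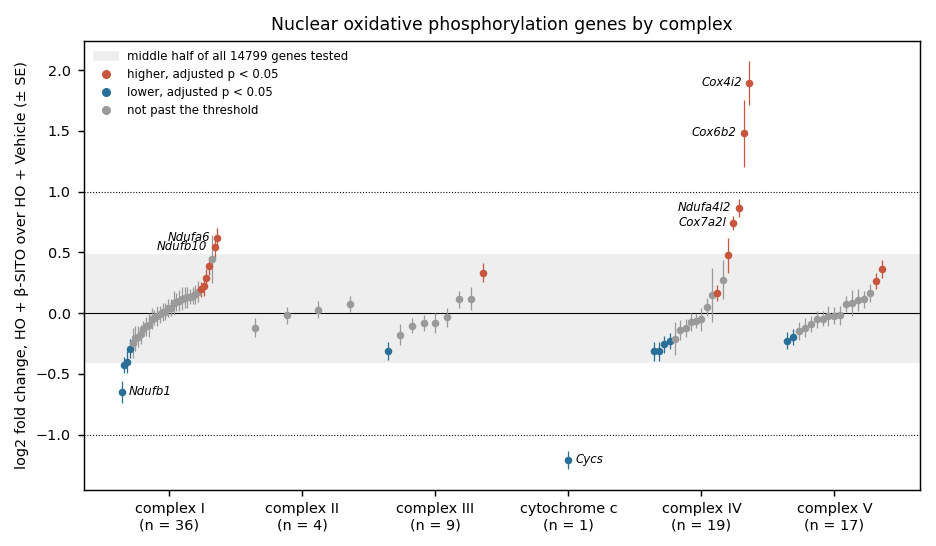
Log2 fold change (HO + β-SITO over HO + Vehicle, y axis) with its SE for the 86 tested members, arranged by complex and sorted within it, with red for higher, blue for lower and grey for not past an adjusted p of 0.05; the shaded band runs from -0.40 to 0.48, the interquartile range of all 14799 genes, and dotted lines mark a 2-fold change. Most members lie inside the band, while Cox4i2 (1.89), Cox6b2 (1.48) and Cycs (-1.21) lie beyond the dotted lines.

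The length of a gene was taken as the union of the exons of all its transcripts in GENCODE vM21. It was 419 bases for Ndufa1 and 6443 for Atp5l, so ranks by level per length depend on this annotation. The level per length is given as RPKM, the CPM per kilobase of this length. Its median over the members in HO + Vehicle was 39.0 for complex I, 51.7 for complex II, 73.0 for complex III, 68.5 for complex IV and 48.7 for complex V, and Cycs lay at 56.8. The range within a complex was wider, from 0.677 (Cox6b2) to 298 RPKM (Cox6b1) in complex IV.

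The lower share of higher calls among members than among all genes depended on the scaling and on 1 library. It also depended on which genes formed the background. With library sizes alone, 37 members were higher (43.0%, against 41.7% of all genes) and 4 were lower (4.65%, against 25.8%). That scaling moved the median of all genes to 0.14 and the median of the members to 0.14, so the median of the members again lay at that of all genes. Without V2, 27 members were higher (31.4%, against 31.5% of all genes) and 10 lower (11.6%, against 31.9%). With no filter on low counts, 17 of 86 members were higher (19.8%), near the 15 of the main test. The share over all genes went from 33.0% of 14799 to 19.9% of 26597 genes, so it was mainly the background that moved. Lower were 15 of 86 members (17.4%) and 5308 of 26597 genes.

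Promoter sequence was looked at because the nuclear genes of oxidative phosphorylation are classic targets of NRF1, GABPA, YY1 and the estrogen-related receptors. RefSeq promoters of 300 bases (250 before and 50 after the start of the gene, build GRCm38.p6) matched 69 of the 86 members by symbol. The NRF1 core, GCGCANGCG on either strand, was in 21 of the 69 (30.4%), against 14.5% of 10880 promoters of tested genes and 7.03% of all 27025 promoters. Of these 21 members, 5 were higher in HO + β-SITO, 1 was lower and 15 did not pass. The YY1 core AAGATGGCG was in 7 members (10.1%, against 3.35% of tested genes and 1.64% of all promoters), none of them higher, 1 lower and 6 not passed. The ETS core bound by GABPA, CCGGAAG, was in 17 members (24.6%, against 18.8% and 9.93%), and the estrogen-related receptor element AAGGTCA was in 8 (11.6%, against 3.97% and 5.38%). At least 1 of the 4 motifs was in 38 members, and members with and without a change shared them. A motif is a match of letters in this window only.

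Stretches before the gene start that hold the NRF1 core are shown for 4 of the members that passed the test. Ndufa6 and Ndufb10, both higher, also hold the core and are not shown. Any part of the motif in the direction of these genes was not tested. Each is read 5′ to 3′ on the strand of its gene, with the core in capitals and up to 40 bases on either side.
Cycs, lower (chr6:50566582-50566670, minus strand, core ending 52 bases before the start): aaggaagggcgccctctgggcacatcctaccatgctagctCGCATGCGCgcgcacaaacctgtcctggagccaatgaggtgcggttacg
Atp5g2, higher (chr15:102671048-102671129, minus strand, overlapping matches on both strands, the nearer ending 32 bases before the start): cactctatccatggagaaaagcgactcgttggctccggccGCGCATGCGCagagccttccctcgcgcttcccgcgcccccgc
Atp5c1, higher (chr2:10080433-10080489, minus strand, core ending 8 bases before the start): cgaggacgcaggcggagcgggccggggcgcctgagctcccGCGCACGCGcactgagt
Ndufb4, higher (chr16:37654369-37654599, minus strand, 3 matches, the nearest ending 13 bases before the start): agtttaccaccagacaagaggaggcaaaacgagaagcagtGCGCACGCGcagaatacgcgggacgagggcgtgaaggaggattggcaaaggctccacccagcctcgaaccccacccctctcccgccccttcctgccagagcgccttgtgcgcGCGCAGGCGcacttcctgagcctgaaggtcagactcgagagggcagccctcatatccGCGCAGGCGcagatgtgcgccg

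Complex I, the NADH dehydrogenase, had 36 tested members with a median log2 fold change of 0.04, of which 6 were higher and 4 lower. These shares, 16.7% and 11.1%, lay under the 33.0% and 33.8% of all genes. The largest increase was that of Ndufa6, an accessory subunit where the matrix arm meets the membrane arm, which measured 23.3, 28.1 and 24.5 CPM in V1 to V3 and 40.9, 38.3 and 37.6 CPM in T4 to T6. Its groups did not overlap, and its log2 fold change was 0.62 ± 0.08 (SE, adjusted p = 7.34e-06). Ndufb1, a small subunit of the membrane arm, went the other way, from 47.0, 55.0 and 48.8 CPM to 36.4, 30.9 and 28.6 CPM, with a log2 fold change of -0.65 ± 0.09 (adjusted p = 1.28e-05). Every HO + β-SITO library lay under every HO + Vehicle library for Ndufb1. Reads of its opposite-strand neighbour Cpsf2, at 193% of the Ndufb1 counts, could not be told apart from it if strand was not used in counting, and the strand setting was not given in the sources used here.

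Within complex I, called members of opposite sign stood side by side in the same structural modules. In every module the share of members higher and the share lower lay under those of all genes (33.0% and 33.8%). The NDUFB subunits of the membrane arm had 11 tested members, with Ndufb10 (0.54, adjusted p = 6.47e-05), Ndufb11 (0.39, adjusted p = 2.84e-04) and Ndufb4 (0.22, adjusted p = 0.0312) higher and Ndufb1 lower. Ndufb10 measured 58.6, 75.4 and 62.8 CPM in V1 to V3 and 85.7, 100.6 and 100.1 CPM in T4 to T6, so that its groups did not overlap. Among the other 11 membrane-arm and interface subunits, Ndufa6 and Ndufc2 (0.20, adjusted p = 0.0101) were higher and Ndufa1 was lower.

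Ndufa1, a membrane subunit needed for assembly of the complex, had the highest level per length of complex I, at a mean of 126 RPKM in HO + Vehicle. It measured 47.0, 60.9 and 50.02 CPM in V1 to V3 and 41.5, 38.9 and 39.0 CPM in T4 to T6, with a log2 fold change of -0.40 ± 0.09 (adjusted p = 8.16e-04). Its groups did not overlap, although V1 and T4 lay close together.

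In the NADH-oxidizing module, which takes electrons from NADH, 1 of 9 members rose and 1 fell. Ndufv3 was higher (0.29, adjusted p = 0.00341) and Ndufs4, whose loss in mice gives a disease like Leigh syndrome, was lower (-0.29, adjusted p = 0.00411). The call of Ndufs4 was lost with library sizes alone and with upper quartile scaling. The flavoprotein that binds NADH, Ndufv1, had a log2 fold change of 0.05 (adjusted p = 0.583). In the ubiquinone-binding module, Ndufs3 was the 1 called member of 5, at 77.6, 88.9 and 83.7 CPM in V1 to V3 against 59.6, 63.0 and 63.4 CPM in T4 to T6 (log2 fold change -0.43 ± 0.07, adjusted p = 3.29e-05).

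The other 26 members of complex I did not pass the test, with log2 fold changes from -0.25 (Ndufb8) to 0.45 (Ndufb2). The level per length was lowest for Ndufb2, at a mean of 0.434 RPKM in HO + Vehicle and only 34 to 73 counts a library (adjusted p = 0.0553). Ndufb2, Ndufb8 and Ndufb9 overlap another protein-coding gene on the same strand that held 0 counts, and reads shared by such genes may not have been counted, so their levels are uncertain. Ndufb2 also overlaps Braf on the opposite strand, which held 1315% as many counts.

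Complex II, succinate dehydrogenase, is the complex with all its subunits encoded in the nucleus, and none of its 4 members passed edgeR's test, with 0 of 4 also at an unadjusted p under 0.05 and with DESeq2 or limma-voom. With library sizes alone Sdhc passed (0.22, adjusted p = 0.00824), as it did with upper quartile scaling (0.22, adjusted p = 0.00954). The median log2 fold change was 0.01. Sdhb, the iron-sulfur subunit, had the lowest value at -0.12 ± 0.08 (adjusted p = 0.179), with 83.1, 95.1 and 87.2 CPM in V1 to V3 and 72.9, 84.2 and 87.6 CPM in T4 to T6. Sdhc, a membrane anchor, had the highest at 0.08 ± 0.07 (adjusted p = 0.328), with 144, 148 and 130.5 CPM against 137, 156 and 153 CPM. The other anchor, Sdhd, had the highest level per length (77.8 RPKM in HO + Vehicle) and measured 94.2, 102 and 90.9 CPM against 87.0, 103 and 94.7 CPM, with a log2 fold change of -0.02 (adjusted p = 0.856). In each of these 3 genes the groups overlapped.

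Complex III, the cytochrome bc1 complex, had 9 tested members, of which 1 rose and 1 fell (11.1% each, beside 33.0% and 33.8% of all genes). The median of their log2 fold changes was -0.08. Uqcrh, the hinge protein next to cytochrome c1, measured 106, 136 and 127 CPM in V1 to V3 and 151, 154 and 159.6 CPM in T4 to T6, with a log2 fold change of 0.33 ± 0.08 (adjusted p = 0.00150). Uqcrq, a small ubiquinone-binding subunit, measured 100.4, 116 and 94.95 CPM against 77.6, 87.9 and 84.8 CPM (-0.31 ± 0.08, adjusted p = 0.00189). The groups of both genes were separate, but with library sizes alone Uqcrq did not pass (adjusted p = 0.0691). The 7 members that did not pass lay between -0.18 (Uqcrb) and 0.12 (Uqcr11), with the catalytic subunits Cyc1 and Uqcrfs1 at -0.03 and 0.11. Uqcr10, with the highest level per length (130.3 RPKM in HO + Vehicle), measured 70.5, 87.6 and 70.2 CPM against 65.8, 75.04 and 74.96 CPM, and its value of -0.08 (adjusted p = 0.416) changed sign to 0.066 with library sizes alone.

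Cycs, the somatic form of cytochrome c, fell by 1.21 on the log2 scale and was the member with the largest decrease. The gene (ENSMUSG00000063694, chr6:50539543-50543518, minus strand, in the GRCm39 coordinates of the deposited table) measured 176, 193 and 211 CPM in V1 to V3 and 76.7, 86.3 and 87.6 CPM in T4 to T6. Its mean went from 193 ± 17.3 to 83.6 ± 5.95 CPM (SD, n = 3), an interval of -1.37 to -1.05 at 95% around the log2 fold change (adjusted p = 9.99e-10). The highest HO + β-SITO library held less than the lowest HO + Vehicle library, and leaving out any library gave values from -1.25 to -1.12. Beside its role in respiration, cytochrome c is known as the trigger of caspase activation once it leaves the mitochondrion. Neither neighbour in the chain, complex III or complex IV, showed a decrease of this size in any member.

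**Figure D2:**
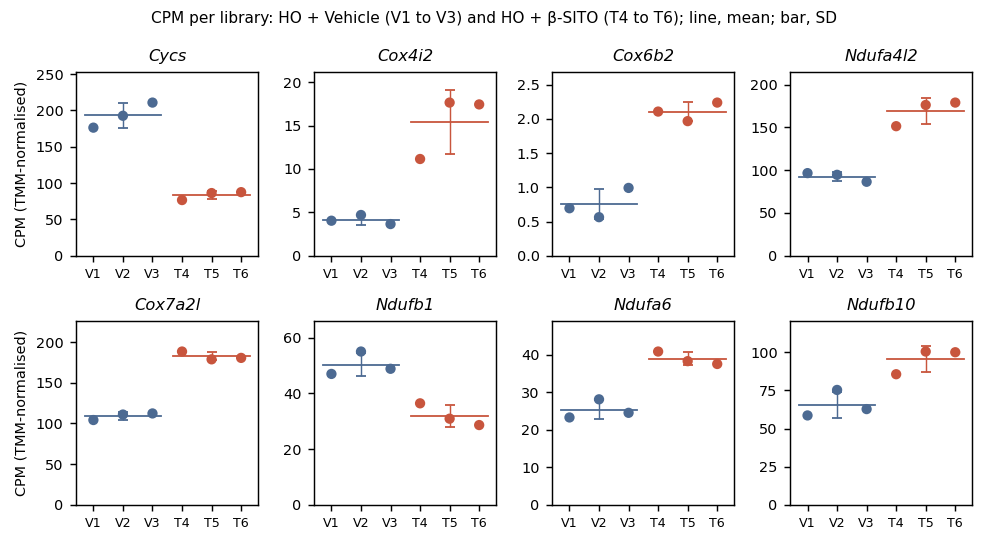
CPM per library (y axes, from 0) of 8 members in HO + Vehicle (V1 to V3) and HO + β-SITO (T4 to T6), with the group mean as a line and the SD as a bar. Cycs and Ndufb1 are lower in T4 to T6 and the other 6 genes higher, with no overlap of the groups in any panel.

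Complex IV, cytochrome c oxidase, held the members with the largest increases. Of its 19 tested members 6 rose (31.6%, beside 33.0% of all genes) and 4 fell (21.1%, beside 33.8%). The median of their log2 fold changes was -0.05, and 0.23 regardless of sign. The increases were mainly in isoforms and in factors outside the common core: Cox4i2, Cox6b2, Ndufa4l2, Cox7a2l and Cox8b, plus the common subunit Cox4i1 (0.17). The decreases were those of the ubiquitous subunits Ndufa4 (-0.31), Cox6c (-0.31), Cox5b (-0.25) and Cox7b (-0.23), with adjusted p from 0.00199 to 0.00526. Of the 11 ubiquitous subunits 4 were thus lower (36.4%, beside 33.8% of all genes), 1 was higher and 6 did not pass, and with library sizes alone or upper quartile scaling 0 of the 11 were lower by edgeR and 2 were higher. The 9 members that did not pass lay between -0.21 (Cox5b-ps, a pseudogene by its name that the table lists as protein-coding) and 0.28 (Cox7a1).

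Cox4i2, the lung form of subunit 4, is known to be induced by low oxygen and to be expressed in vascular mural cells as well. It measured 4.04, 4.70 and 3.66 CPM in V1 to V3 and 11.2, 17.6 and 17.4 CPM in T4 to T6, from 59 to 75 counts a library in HO + Vehicle and 217 to 335 in HO + β-SITO. The mean rose 3.72-fold, with a log2 fold change of 1.89 ± 0.18 (95% interval 1.51 to 2.28, adjusted p = 1.72e-07). The gene lies at chr2:152596093-152606957 on the plus strand (ENSMUSG00000009876). T4 was the lowest of the treated libraries for Cox4i2, as it was for the summed cardiomyocyte and the summed smooth muscle markers. For Cox4i2 it was still above each HO + Vehicle library.

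Ndufa4l2, a paralog of Ndufa4 and also known to be induced by hypoxia and high in mural cells, lay at a mean of 84.5 RPKM in HO + Vehicle, above the median of 68.5 RPKM of complex IV. It measured 96.6, 94.6 and 86.5 CPM in V1 to V3 and 151, 176 and 179 CPM in T4 to T6, a 1.82-fold increase (log2 fold change 0.87 ± 0.07, adjusted p = 4.01e-08). It lies at chr10:127350836-127353023, plus strand (ENSMUSG00000040280), and overlaps Shmt2 on the opposite strand, which held 75.4% as many counts. Hif1a, the oxygen-regulated transcription factor subunit whose targets include both genes, fell in the same libraries, from 648, 672 and 709 CPM to 182, 188 and 180.2 CPM (log2 fold change -1.88, adjusted p = 3.17e-13). These values are of RNA and not of protein. The smooth muscle markers, Acta2, Myh11, Tagln and Cnn1, were all higher in HO + β-SITO. The part of Hif1a or of mural cells in the levels of Cox4i2 and Ndufa4l2 was not tested.

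Cox6b2, the testis form of subunit 6b, was rare in all libraries, with 9 to 16 counts in HO + Vehicle and 35 to 43 in HO + β-SITO. This came to 0.695, 0.564 and 0.992 CPM in V1 to V3 and 2.11, 1.97 and 2.24 CPM in T4 to T6. The log2 fold change was 1.48 ± 0.27 (95% interval 0.89 to 2.06, adjusted p = 2.06e-04), and a test against a 2-fold change itself did not pass (adjusted p = 0.0870).

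Cox7a2l, which links complexes III and IV into supercomplexes and is known to be shortened in C57BL/6 mice, had the smallest SE of these genes. It measured 104, 111 and 112 CPM in V1 to V3 and 188, 179 and 181 CPM in T4 to T6. The treated libraries lay close together and far above the others, and the log2 fold change was 0.74 ± 0.06 (adjusted p = 1.70e-08).

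For 6 pairs, the log2 ratio of the counts of the first gene over those of the common form was taken within each library. The first gene was the tissue-restricted isoform or, for Ndufa4, its paralog Ndufa4l2. The ratio does not depend on the scaling of the libraries and is not corrected for gene length. For 3 pairs the groups did not overlap. Per 100 counts of Cox4i1 there were 1.25, 1.28 and 1.15 counts of Cox4i2 in V1 to V3 and 3.14, 4.57 and 4.49 in T4 to T6, a difference of 1.71 in the log2 ratio. Per 100 counts of Ndufa4 there were 116, 90.3 and 90.1 counts of Ndufa4l2 against 202, 223 and 241, a difference of 1.17. Per 100 counts of Cox6b1 there were 0.360, 0.240 and 0.485 counts of Cox6b2 against 1.13, 0.984 and 1.14, a difference of 1.64. The two-sided exact permutation p was 0.1 for each of the 3, the smallest that 3 libraries against 3 can give, and 0.2 after Benjamini-Hochberg adjustment over the 6 pairs.

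The common partners of these pairs changed much less. Cox4i1, the common form of subunit 4, measured 323, 366 and 317 CPM in V1 to V3 and 356, 386 and 388 CPM in T4 to T6 (log2 fold change 0.17, adjusted p = 0.0390), a call lost without V1 (0.0682), V3 (0.103), T5 (0.0674) or T6 (0.116). Ndufa4 measured 82.9, 105 and 96.0 CPM against 74.8, 79.0 and 74.3 CPM (-0.31, adjusted p = 0.00199), a call lost with library sizes alone (0.0689). Cox6b1, the complex IV member with the highest level per length (298 RPKM in HO + Vehicle), measured 193, 236 and 205 CPM against 186, 199.9 and 196 CPM, with a value of -0.12 (adjusted p = 0.145) that went to 0.026 with library sizes alone.

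**Figure D3:**
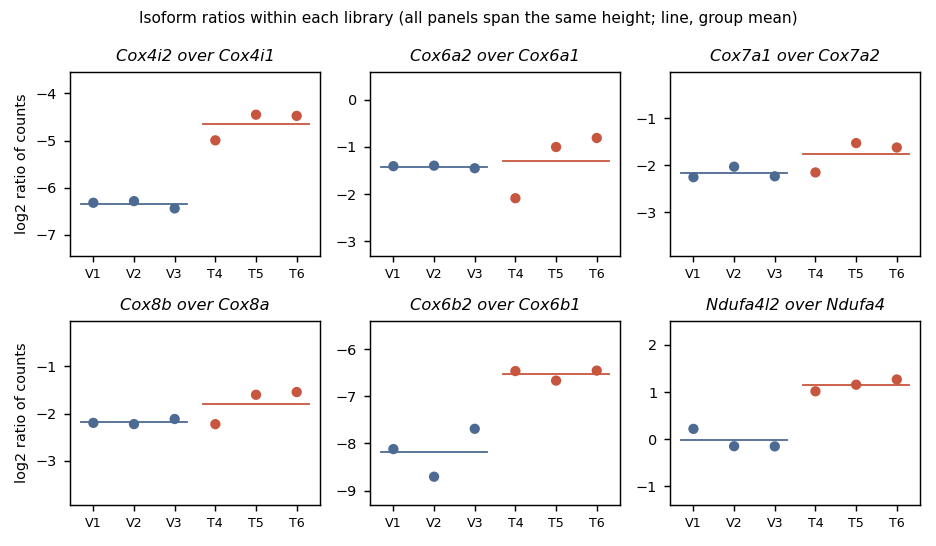
Log2 ratio of counts of the tissue-restricted isoform, or of the paralog Ndufa4l2, over the common form (y axes, all panels the same height) in each library for the 6 pairs, with the group mean as a line. The groups are separate for Cox4i2 over Cox4i1, Cox6b2 over Cox6b1 and Ndufa4l2 over Ndufa4, and T4 lies under the HO + Vehicle libraries for Cox6a2 over Cox6a1 and Cox8b over Cox8a.

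The heart and muscle isoforms Cox6a2, Cox7a1 and Cox8b were all lower in T4 than in T5 and T6. Cox6a2 measured 29.5, 34.6 and 26.6 CPM in V1 to V3 but 17.9, 38.8 and 43.9 CPM in T4 to T6, so T4 held 43.2% of the mean of T5 and T6. Cox7a1 measured 14.5, 22.1 and 16.5 CPM against 16.0, 24.6 and 23.8 CPM, and Cox8b 16.0, 18.6 and 16.2 CPM against 17.1, 26.5 and 27.2 CPM. In the same way the 10 cardiomyocyte markers of T4 summed to 61.7% of the mean of T5 and T6, beside 66.0% for Cox7a1 and 63.5% for Cox8b, whereas the median over all tested members was 91.7%. The low T4 value was not confined to these isoforms. Cox4i2 ranked between Cox8b and Cox7a1 by this measure, with 11.2 CPM in T4 against 17.6 and 17.4 CPM in T5 and T6. Next after Cox7a1 came Cox5b-ps, Cox5a and Ndufa11.

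By the test, Cox8b was higher (0.47, adjusted p = 0.00868) with overlapping groups, while Cox6a2 (0.15, adjusted p = 0.573) and Cox7a1 (0.28, adjusted p = 0.140) did not pass. Without T4 all 3 passed, at 0.45 for Cox6a2 (adjusted p = 1.82e-04), 0.45 for Cox7a1 (adjusted p = 0.00188) and 0.66 for Cox8b. Cox7a1 also passed without V2 (0.47, adjusted p = 0.0219), with library sizes alone (0.42, adjusted p = 0.0292), with upper quartile scaling (0.42, adjusted p = 0.0326) and with no filter (0.28, adjusted p = 0.0117). Without T6 the value of Cox6a2 was -0.09. The common partners Cox6a1 (78.3, 91.2 and 72.8 CPM against 76.1, 77.8 and 77.0 CPM), Cox7a2 (69.2, 90.1 and 77.5 CPM against 71.0, 71.0 and 73.2 CPM) and Cox8a (73.6, 86.9 and 70.1 CPM against 79.8, 80.3 and 79.4 CPM) did not pass. Of these, Cox8a (0.05) passed without V2 (0.15, adjusted p = 0.0385), with library sizes alone (0.20, adjusted p = 0.0282) and with upper quartile scaling (0.20, adjusted p = 0.0333), and Cox7a2 (-0.14) passed without V1 (-0.20, adjusted p = 0.0252). The ratios of these 3 pairs overlapped between the groups, with exact permutation p of 1, 0.2 and 0.4 (1, 0.3 and 0.48 after adjustment).

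**Figure D4:**
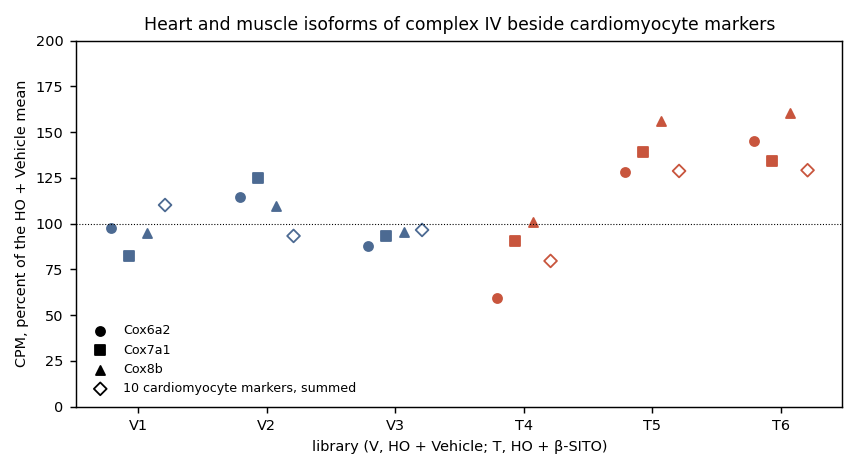
CPM of Cox6a2, Cox7a1 and Cox8b and of 10 summed cardiomyocyte markers in each library, as a percentage of the HO + Vehicle mean (y axis, from 0; the dotted line is at 100). In T5 and T6 all 4 lie above the line, while in T4 Cox6a2 is at 59.2% and the markers at 79.6%.

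Complex V, the ATP synthase, had 17 tested members with a median log2 fold change of -0.02. Of these 2 rose and 2 fell (11.8% each, beside 33.0% and 33.8% of all genes). Atp5g2, one of the genes for the subunit of the rotating c-ring, measured 81.2, 90.0 and 73.7 CPM in V1 to V3 and 99.8, 113 and 102 CPM in T4 to T6 (0.36 ± 0.08, adjusted p = 5.76e-04). The other c-ring genes, Atp5g1 (-0.12) and Atp5g3 (-0.05), did not pass. Atp5c1, the γ subunit of the central stalk, was higher by 0.26 (adjusted p = 0.00258). Both of these called genes are among those whose NRF1 core is printed above, as is Cycs, which fell. The 13 members of complex V that did not pass lay between -0.15 (Atp5b) and 0.17 (Atp5d).

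On the lower side, Atp5md, a small membrane subunit involved in joining synthase dimers, measured 81.4, 99.4 and 94.8 CPM in V1 to V3 and 77.7, 79.1 and 78.8 CPM in T4 to T6 (-0.23 ± 0.07, adjusted p = 0.0110). This call was lost with library sizes alone (adjusted p = 0.349) and without V2 (0.0629), V3 (0.0803) or T5 (0.0530). Atp5pb, the b subunit of the peripheral stalk, was lower by 0.20 (adjusted p = 0.0202). The call of Atp5pb was lost with library sizes alone, with upper quartile scaling and without V2, V3, T4 or T5. Atp5b, the catalytic β subunit and the member with the highest level per length of the complex (264 RPKM in HO + Vehicle), measured 1158, 1108 and 1093 CPM against 887, 1085 and 1064 CPM. Its groups did not overlap, but the difference of -0.15 on the log2 scale did not pass (adjusted p = 0.0953) and was 0.0025 with library sizes alone.

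As shares of all counts in a library, the nuclear oxidative phosphorylation genes took 0.831, 0.910 and 0.831% in V1 to V3 and 0.891, 0.975 and 0.982% in T4 to T6. The means were 0.857 ± 0.0457% and 0.949 ± 0.0504% (SD, n = 3), and V2 lay above T4 (two-sided exact permutation p = 0.2). Shares follow the library sizes alone, a scaling under which the median of all genes was itself 0.14 higher on the log2 scale. The mean share was 10.7% larger in HO + β-SITO for all members, 13.5% for complex I, 11.6% for complex II and 16.7% for complex IV. By complex, the groups were separate for complex I, complex II and complex IV (exact permutation p = 0.1 each), and they overlapped for complex III and complex V (exact permutation p = 0.2 each). Cycs went from 0.0183 ± 0.00161% to 0.00878 ± 0.000609% (exact permutation p = 0.1).

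**Figure D5:**
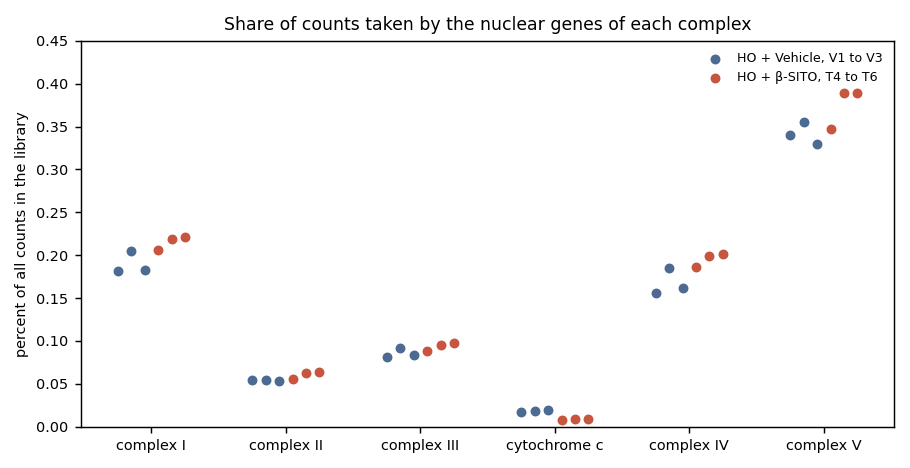
Percent of all counts of each library (y axis, from 0) taken by the nuclear genes of each complex, in HO + Vehicle (V1 to V3) and HO + β-SITO (T4 to T6). Complex V takes the largest share, at 0.330 to 0.389%, and cytochrome c is the one group whose treated libraries lie under the others.

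The 13 mitochondrially encoded protein-coding genes supply the remaining subunits of complexes I, III, IV and V. They took 0.953, 0.869 and 0.964% of all counts in V1 to V3 and 1.71, 2.06 and 2.10% in T4 to T6 (exact permutation p = 0.1). There were 1.09 ± 0.115 mitochondrially encoded counts per nuclear member count in HO + Vehicle and 2.06 ± 0.121 in HO + β-SITO (SD, n = 3, exact permutation p = 0.1). The 17 pseudogenes with names like those of members took 0.0013% of all counts in both groups.

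Factors that build the complexes were taken from lists of known genes, to be read beside the 33.0% of all genes that rose and the 33.8% that fell. Of 19 tested complex IV assembly factors 8 fell and 2 rose, with a median log2 fold change of -0.22. Cox18, which inserts the mitochondrially encoded subunit 2 into the inner membrane, was a DEG with 21.5, 23.5 and 22.1 CPM in V1 to V3 and 6.32, 5.45 and 6.09 CPM in T4 to T6 (-1.90, adjusted p = 1.46e-10). The copper chaperone Sco1 was another, with 31.3, 33.5 and 31.9 CPM against 10.9, 13.1 and 12.7 CPM (-1.40, adjusted p = 1.42e-09). Cox15 (-0.75), which makes heme A, and the copper chaperone Cox11 (-0.93) were also lower, and Cmc2 (0.76) and Cox19 (0.25) were higher. Sco2 and Pet117 were at 0 in all libraries.

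For complex I, 3 of 17 assembly factors rose (Nubpl, Dmac1 and Ndufaf2) and 6 fell, led by Foxred1 (-0.86, adjusted p = 3.89e-08), with a median of -0.12. For complex II, Sdhaf4 rose (0.62) and Sdhaf2 fell (-0.54) among 4. For complex III, 1 of 6 rose (Bcs1l, 0.42) and 3 fell, with Ttc19 at -0.64. For complex V, Fmc1 rose (0.57) among 4.

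Among 18 regulators of mitochondrial gene expression and oxygen response, 4 rose and 7 fell (33.0% and 33.8% of all genes), with a median of -0.14. Nrf1 itself, whose motif was searched above, rose by 0.27 (adjusted p = 0.00704), from 20.02, 22.9 and 22.9 CPM to 26.0, 26.7 and 27.0 CPM. Of the other factors with a searched motif, Gabpa (0.04, adjusted p = 0.641), Yy1 (0.08, adjusted p = 0.271) and Esrra (-0.17, adjusted p = 0.112) did not pass. Gabpb1 (-0.25, adjusted p = 0.0145) and Esrrg (-0.56, adjusted p = 0.00977) were lower. Beside Nrf1, the genes that rose were Ppara (0.63), Ppargc1b (0.52) and Tfb2m (0.32). Ppargc1a, the coactivator of mitochondrial biogenesis, had a value of -0.09 (adjusted p = 0.613), and Tfam, which packages and transcribes mitochondrial DNA, was lower (-0.24, adjusted p = 0.0306). Beside Hif1a, its relative Epas1 (-0.96) and the matrix protease Lonp1 (-0.79), known to take part in the switch between the forms of subunit 4, were lower.

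Pathways on either side of the respiratory chain were also described, to be read beside the 33.0% of all genes that rose and the 33.8% that fell. In the tricarboxylic acid cycle, which feeds the chain, 2 of 13 genes rose (Fh1, 0.40, and Suclg2, 0.37) and 3 fell (Dld, -0.48, Mdh2, -0.29, and Sucla2, -0.25), with a median of 0.05. All 8 of the carriers, channels and creatine kinases that move ATP and phosphate passed the test, 5 higher and 3 lower. Over all genes, 66.8% passed. The adenine nucleotide carrier of heart and muscle, Slc25a4, rose (0.38) and the form found in growing cells, Slc25a5, fell (-0.52). Vdac3 of the outer membrane was a DEG that fell (-1.04, adjusted p = 1.89e-09), beside Vdac2 (-0.44), whereas Vdac1 rose (0.33). The muscle creatine kinases Ckm (24.4, 20.3 and 21.1 CPM against 26.7, 46.5 and 42.4 CPM) and Ckmt2 (24.0, 18.4 and 18.8 CPM against 21.9, 46.0 and 45.6 CPM) were higher by 0.81 and 0.89 on the log2 scale. For both, T4 lay far under T5 and T6, and for Ckmt2 it lay within the range of the HO + Vehicle libraries.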

How the data were processed

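The authors deposited 1 table of raw read counts per gene for the 6 libraries, made per the submitters' processing notes with FastQC, HISAT2 and featureCounts on GRCm39. Versions, counting options and the strand setting were not given in the sources used here. Libraries were paired-end, and the study and the sample labels name different library kits. Total counts were 16694734 to 18460522 per library.

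From the counts, edgeR 4.0.16 in R 4.3.3 (filterByExpr, TMM, glmQLFit and glmQLFTest with the group as the only term, Benjamini-Hochberg adjustment over 14799 genes) gave log2 fold changes, SEs and adjusted p-values. The biological coefficient of variation was 6.52%. No 2 libraries of a group held the same counts within sampling noise (chi-square per degree of freedom 1.95 to 9.10). This speaks only against duplicated columns, and whether the libraries came from separate cultures is not known. Shares and isoform ratios were compared with two-sided exact permutation tests, whose smallest p is 0.1.

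Levels per length used exon lengths of GENCODE vM21, matched by gene identifier for all 90 members. Of the tested members, 40 overlap another gene in the table, and for 16 the opposite-strand neighbour held at least 10% of their counts. Among these are the called members Ndufb11 (Rbm10, 60.1%) and Cox6c (Vps13b, 26.4%).

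Per-library values were given by rule for DEGs, isoform pairs and, in each complex, the members with the largest and smallest log2 fold change and the highest level per length. Further members and list genes were chosen after their values were seen. The members, the pathway and marker lists and the tests were chosen with earlier results of these data known. Alternatives were DESeq2 1.42.0, limma-voom 3.58.1, glmTreat, other scalings and filters, other denominators, an offset of 0.5 in ratios, and each library left out.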

Additional observations from a re-analysis of the deposited data

Results flagged for a closer look

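The mitochondrially encoded protein-coding genes were outside the gene-by-gene comparison of nuclear members, and their summed level was above that of the control libraries. They took a mean of 1.96% of all counts in HO + β-SITO and 0.929% in HO + Vehicle, with every treated library above every control library.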

How the results depend on the processing

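No paired analysis was possible because the groups share no replicate numbers (1 to 3 and 4 to 6). Of 557 recomputed values, 41 changed sign, 15 of them by less than the spread between libraries (medians near 0 and the ratio of Cox6a2 to Cox6a1). Another 479 kept their direction and side of the threshold, and the rest gained or lost a call or moved. DESeq2 and limma-voom each gave 15 members higher and 12 lower, as edgeR did. With library sizes only, 37 members were higher and 4 lower, and the median of all genes moved to 0.14. The medians were then 0.14 for all members, 0.19 for complex I, 0.15 for complex II, 0.066 for complex III, -1.06 for cytochrome c, 0.098 for complex IV and 0.13 for complex V. With upper quartile scaling there were also 37 and 4 (41.4% and 26.0% of all genes), with medians of 0.13, 0.19, 0.15, 0.061, -1.07, 0.093 and 0.12 in the same order. The cause of the difference between scalings was not tested.

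Leaving out each library in turn gave 13 to 27 members higher (27 without V2) and 10 to 14 lower, with 2 DEGs higher and 1 lower each time, and a median over members of -0.01 to 0.05. Single members that changed sign had not passed the test. With library sizes only they were Atp5b (0.0025), Cox6a1 (0.078), Cox6b1 (0.026), Cox7a2 (0.010), Sdhb (0.030), Sdhd (0.13) and Uqcr10 (0.066), and with upper quartile scaling Cox6a1 (0.073), Cox6b1 (0.021), Cox7a2 (0.0048), Sdhb (0.025), Sdhd (0.13) and Uqcr10 (0.061). Over the libraries left out, Cox6a1 ranged from -0.12 to 0.029, Cox6a2 from -0.092 (without T6) to 0.45 (without T4), Sdhd from -0.046 to 0.044 and Uqcr10 from -0.11 to 0.034, with the sign of Cox6a1 and Uqcr10 turned by V2 and that of Sdhd by V2 or T4. Depth limits Cox6b2 and Ndufb2, which had under 100 counts in every library.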

Other observations

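A few genes of the same enzymes carry names that the symbol pattern did not match. Ndufab1, an acyl carrier protein that is also a subunit of complex I, measured 37.3, 42.8 and 40.8 CPM in V1 to V3 and 31.1, 38.4 and 40.2 CPM in T4 to T6, a log2 difference of -0.14 that did not pass (adjusted p = 0.188 by edgeR). Atpif1, the inhibitor of the ATP synthase when it runs backwards, rose from 23.2, 24.01 and 26.7 CPM to 29.4, 33.4 and 32.0 CPM (0.36, adjusted p = 0.00127), and its groups did not overlap. Dmac2l, a subunit of the synthase that couples its parts, had a value of 0.21 (adjusted p = 0.171).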
